A study of Mus musculus with 8 samples.

Results

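The histone genes of mouse bone marrow mesenchymal stem cells (MSCs) were taken from the expression table by their symbols: those that begin with Hist1h to Hist4h (clustered genes), with H2af followed by j, v, x, y or z, with H1f0 or H1fx, or with H3f3a or H3f3b (replacement genes). This gave 79 of 24346 genes, of which 68 were clustered and 11 were replacement genes. The study asked how MSCs from mice without *Dnmt3l*, a cofactor of the de novo DNA methyltransferases, differ from those of wild-type (WT) littermates before and early in bone formation. RNA was measured in 8 libraries that form 4 groups of 2: WT MSCs and *Dnmt3l* KO MSCs, each either undifferentiated or differentiating. All groups were C57BL/6 bone marrow MSCs at passage 4, selected against the blood cell surface proteins CD11b and CD45, with cells of several mice mixed within a genotype. The undifferentiated cells grew in medium with 20% serum. The differentiating cells had spent 3 days in 10% serum with 0.1 µM dexamethasone, 10 mM β-glycerophosphate and 50 µM ascorbic acid 2-phosphate. By the study's methods this medium was given once the cells were confluent. The density of the undifferentiated cells is not given. Induction, the lower serum, confluence and time in culture therefore cannot be told apart. The KO lacks the gene in the whole animal, and the labels leave out whether both libraries of a group had cultures of their own. P-values therefore measure the spread between these libraries, which may be technical.

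Histones are the proteins around which DNA is wound. The clustered, or replication-dependent, genes supply the bulk of H1, H2A, H2B, H3 and H4 while DNA is copied in S phase. Their mRNAs end in a conserved stem-loop bound by SLBP in place of a poly(A) tail, and are degraded when replication stops. Replacement genes are transcribed throughout the cell cycle and give ordinary polyadenylated mRNAs, most of them with introns; their proteins (H3.3, H2A.Z, macroH2A, H1.0 and others) enter chromatin outside replication. The libraries were made from RNA depleted of ribosomal RNA, so mRNAs without a poly(A) tail were not selected against by an oligo(dT) step at the start.

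The stem-loop is shown because it is a sequence feature of most clustered and few other genes. In the GENCODE M21 transcripts (GRCm38, the same assembly as mm10) the letters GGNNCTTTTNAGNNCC were searched on the sense strand after the stop codon. In the 1 transcript taken for each member they were found in 43 of 68 clustered genes and in 1 of 11 replacement genes, *H2afx*. Over any coding transcript of a gene, 45 members had them. On that count, of all 21805 genes with a coding transcript 61 (0.28%) had them there, and of the 21728 that are not members 16 (0.0736%). Another 15 clustered gene models end within 30 nt of the stop codon, too early to hold the motif. In 9 others the model has a longer 3′ end without these letters, such as *Hist1h2bc* with 742 nt after its stop codon, and 1 clustered gene has no coding sequence annotated. The distance from the stop codon to the stem-loop was 21 to 58 nt, with a median of 31. The 7 versions are printed with 5 transcript bases on each side; the capitals mark the stem-loop.
Hist1h2ab: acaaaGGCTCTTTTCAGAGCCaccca
Hist1h4d: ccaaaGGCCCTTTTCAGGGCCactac
Hist1h2bb: ccaaaGGCTCTTTTAAGAGCCaccca
Hist2h4: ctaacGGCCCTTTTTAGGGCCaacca
Hist1h4b: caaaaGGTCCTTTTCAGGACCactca
Hist2h2ac: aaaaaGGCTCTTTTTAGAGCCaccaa
H2afx: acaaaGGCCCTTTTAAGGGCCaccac
Versions differed between families. The version of *Hist1h2ab* was shared by 25 members from the H1, H2A, H2B and H3 families, that of *Hist1h4d* by 7 H4 genes and that of *Hist1h2bb* by 6 members. The versions of *Hist2h4* and *Hist1h4b* were each found in 2 H4 genes. Those of *Hist2h2ac* and *H2afx* were found in 1 member each.

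Gene structure and start regions also differed between the classes. In 63 of 68 clustered genes the longest model had 1 exon, against 5 of 11 replacement genes. Promoters, 250 bases before to 50 after the start, were taken from RefSeq (GRCm38.p6) and matched 61 clustered and 9 replacement genes; motifs were searched on both strands. CCAAT was present in 52 of 61 clustered promoters (85.2%), against 37.9% of all 27025 promoters. It was found in every matched H1, H2A, H2B and H3 promoter but in 3 of 12 of the H4 genes. TATAAA was in 57.4% of clustered promoters, against 14.2% of all. ATTTGCAT, the octamer long known from H2B promoters, was in 7 of 17 H2A and 6 of 16 H2B promoters, in 0 of the other clustered promoters and in 1.75% of all. Among the replacement genes *H3f3b* held it. Some divergent H2A and H2B genes share the start region between them and with it the same octamer, while others, such as *Hist1h2ag* and *Hist1h2bj*, held none. The octamer is shown in capitals with 8 bases on each side, for shared and for single windows.
Hist1h2ae and Hist1h2bg: agtcccttATTTGCATagaacctc
Hist1h2ah and Hist1h2bk: ttcactttATTTGCATacgaagtt
Hist1h2bb: agtctcttATTTGCATaaagcctt
H3f3b: gaaccctgATTTGCATacaccaac
A match is a description of these letters and not evidence of a bound factor.

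Of the clustered genes 54 lie on chromosome 13 between 21715763 and 23934851, 10 on chromosome 3 between 96219865 and 96270132, 3 on chromosome 11 between 58948920 and 58956830, and 1, *Hist4h4*, on chromosome 6 between 136801553 and 136804415. Many of them share sequence with other copies of their family, H1 least. Of all 50-nt windows of a transcript, the length of a read, a median of 53.6% in clustered genes and of 93.9% in replacement genes was found in no other gene; over clustered H1 the median was 98.85% and over clustered H2A 27.0%. How the authors' tools divided shared reads among copies is not given in the sources used here, so the level of a single clustered gene is uncertain. *Hist1h2ao*, *Hist1h2ap*, *Hist1h2bq*, *Hist1h2br*, *Hist1h4n* and *Hist2h2aa1*, each with at least 83.2% of its windows in 1 other gene, were listed at 0 to 0.0836 RPKM in every library. *Hist2h3c1* and *Hist2h3c2* were listed at 0 in every library. Both copies of near-identical pairs such as *Hist1h2bq* and *Hist1h2br* were thus near 0, so family totals may lack reads as well, which was not tested.

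Values are RPKM, read counts scaled by transcript length and library size, given for each gene and library. The steps between low values in genes with 1 transcript gave an estimated 47.4 to 67.0 M reads per library, with 216 nt subtracted from each transcript length. On the same basis 3 reads on a transcript of 500 nt would give 0.158 to 0.223 RPKM. *Dnmt3l* was at 1.56 and 1.09 RPKM in undifferentiated WT, at 0.845 and 0.830 RPKM in differentiating WT, and listed at 0 in all 4 KO libraries. The paper reports that these WT reads lacked the first exons of the gene, and that the canonical DNMT3L protein was not detected in MSCs. The MSC markers *Thy1*, *Eng*, *Pdgfra* and *Ly6a* were at 10.8 RPKM or more in all 8 libraries, and of the other 7 markers listed *Nt5e* (3.92 to 6.57 RPKM) and *Lepr* (1.14 to 2.96 RPKM) were below that, whereas *Ptprc*, which encodes CD45, was at most 0.127 RPKM. *Itgam*, which encodes CD11b, was at 0.091 and 0.139 RPKM in undifferentiated WT and 0.29 and 0.36 RPKM in differentiating WT. In the KO libraries *Itgam* was at most 0.0463 RPKM. For the tests, log2(RPKM + 0.1) was fitted with limma over the 15342 genes whose mean reached 0.1 RPKM, with Benjamini-Hochberg adjustment of p-values over all of them. Genes were called at an adjusted p under 0.05 and a log2 fold change above 1 or below -1; adding 0.1 understates the change of low genes. All 11 replacement genes and 58 of 68 clustered genes reached the minimum. The other 10 had means of at most 0.0758 RPKM, and 4 of them were listed at 0 in all libraries.

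In undifferentiated WT MSCs the clustered genes together reached 2448 and 2543 RPKM and the replacement genes 750.3 and 771.6 RPKM. H4 (822.5 and 844.2 RPKM) and H2B (763.7 and 784.2 RPKM) were the highest clustered families. Clustered H1 stood at 374.1 and 396.8 RPKM, H2A at 266.8 and 289.3 RPKM, and H3 at 221.1 and 228 RPKM. Within families the levels were uneven: *Hist1h4d* had a mean of 308.9 RPKM over all libraries and *Hist1h2bc* of 187.7, while *Hist1h2ae* had 4.36. RPKM of such short transcripts also depends on how their length was corrected, which limits comparisons of level between genes.

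Before induction the clustered genes were higher in *Dnmt3l* KO than in WT MSCs, by a modest amount and in nearly the whole set. Their summed level was 3442 and 3444 RPKM in the KO libraries, 1.38 times the WT mean of 2496 ± 67.2 RPKM (SD, n = 2). The median log2 fold change of the 58 tested genes was 0.53, with 55 above 0, against a median of 0.00 over all genes tested. In 52 of 58 genes both KO libraries lay above both WT libraries, which held for 34.8% of all genes tested. None was past the fold limit with an adjusted p under 0.05 in limma with Benjamini-Hochberg adjustment: 0 of 58 were called higher, against 0.613% of all genes. Without the fold limit 30 were higher and 1 lower, against 14.7% and 17.5% of all genes. At an unadjusted p under 0.05 the counts were 37 and 1, against 20.7% and 23.5%. The linker histone gene *Hist1h1e* (chromosome 13, 23620629 to 23622558) went from 52.2 and 54.5 RPKM in WT to 89.1 and 92.2 RPKM in KO, up by 0.76 ± 0.037 on the log2 scale (SE; adjusted p = 0.00024, limma). The 1 gene lower was *Hist1h2bc* (chromosome 13, 23684199 to 23692908), an H2B gene, at 187.6 and 195.3 RPKM in WT and 162.3 and 159.5 RPKM in KO (log2 fold change -0.25 ± 0.042, limma adjusted p = 0.0082). *Hist1h4m*, named after its values were seen, had the greatest log2 fold change, 1.26, but at 0.303 and 0.484 RPKM in WT and 1.03 and 1.10 RPKM in KO it did not pass (limma adjusted p = 0.095).

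**Figure D1:**
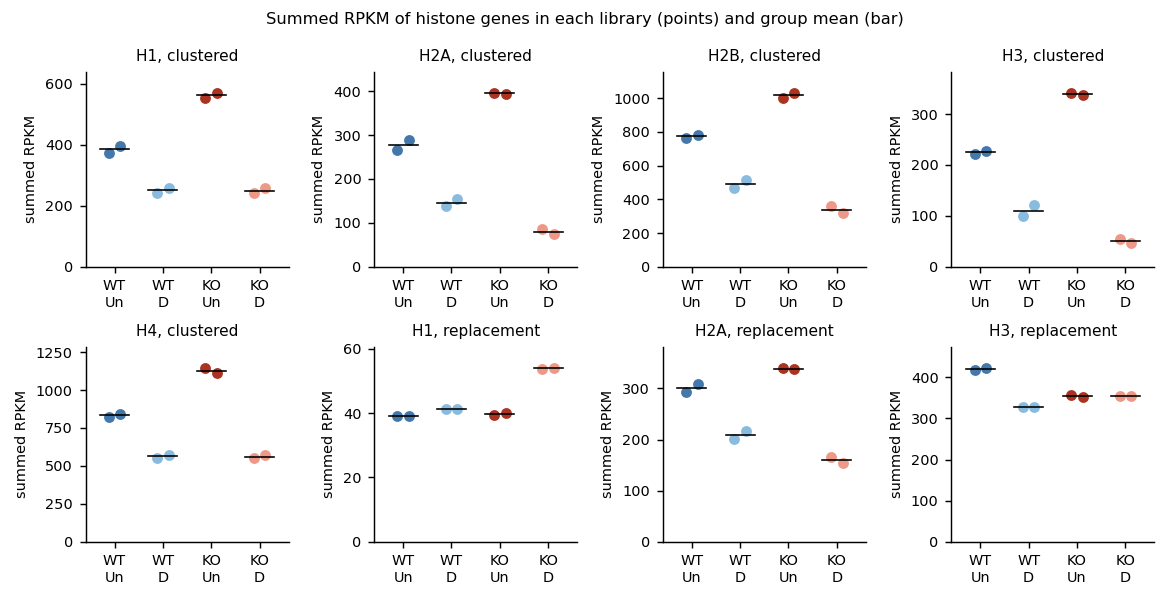
Summed RPKM of the clustered (5 families) and replacement (3 families) histone genes on the y axis, each from 0, in the 4 groups: WT and KO, undifferentiated (Un) and differentiating (D). Points are the 2 libraries of a group and the bar is their mean. In every clustered family undifferentiated KO was the highest group, and in H2A, H2B and H3 differentiating KO was the lowest.

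On induction the clustered genes fell in WT MSCs. The sum went from 2496 ± 67.2 to 1560 ± 86.3 RPKM (SD, n = 2 each), a 1.6-fold lower level. The median log2 fold change was -0.94 (range -1.52 to 0.24), with 56 of 58 below 0. Of the 58, 25 were called lower and 0 higher in limma with Benjamini-Hochberg adjustment, against 4.63% and 9.69% of all genes tested. Without the fold limit 47 were lower and 0 higher, against 32.8% and 31.6%. At an unadjusted p under 0.05 the counts were 49 and 0, against 34.3% and 33.8%. Many changes lay close to the limit, so the count was sensitive: it was 15 with a pseudocount of 1, 15 without replicate 2 of undifferentiated WT and 14 without replicate 1 of differentiating WT, while the median stayed between -0.99 and -0.84 when libraries were left out. The largest called fall was at *Hist1h2bb* (chromosome 13, 23746734 to 23747241), an H2B gene, from 92.9 and 96.3 RPKM to 28.9 and 37.3 RPKM (log2 fold change -1.52 ± 0.16, limma adjusted p = 0.00033). *Hist1h2ab*, an H2A gene on the same chromosome (23751126 to 23751598), fell from 37.0 and 43.4 RPKM to 14.4 and 16.1 RPKM. For both genes the lowest undifferentiated library was more than 2 times the highest differentiating one.

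In *Dnmt3l* KO MSCs the fall was deeper. The sum went from 3443 ± 1.41 to 1280 ± 23.3 RPKM (SD, n = 2 each), 2.69-fold lower, and the median log2 fold change was -2.36 (range -4.06 to 1.01). Of the 58 genes 42 were called lower and 0 higher in limma with Benjamini-Hochberg adjustment, against 9.87% and 13% of all genes; without the fold limit 51 were lower and 1 higher, against 36.6% and 36.4%. With each library left out in turn the count was 42 to 44. The largest fall was at the H2A gene *Hist1h2ah* (chromosome 13, 22035164 to 22035568). It read 18.3 and 16.7 RPKM before induction and 1.56 and 0.571 RPKM after it, a log2 fold change of -4.06 ± 0.38 (limma adjusted p = 0.00013). Its neighbour *Hist1h2ag* (22042460 to 22042944) went from 16.7 and 14.6 RPKM to 1.41 and 0.527 RPKM (-4.02 ± 0.38 on the log2 scale, limma adjusted p = 0.00013). Of the 50-nt windows of *Hist1h2ah* 87.4% are also in *Hist1h2ad*, and of those of *Hist1h2ag* 71.8% are also in *Hist1h2ao*, so reads of these genes could be split with other H2A copies.

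The families differed in depth of the fall. In KO the median log2 fold change on induction was -2.90 for the 10 tested H3 genes, -2.78 for the 14 H2A genes, -2.61 for the 16 H2B genes, -1.60 for the 6 H1 genes and -0.97 for the 12 H4 genes. All 10 H3 genes were called lower, with 12 H2A, 12 H2B, 3 H1 and 5 H4 genes. As summed levels, H3 fell 6.75-fold, H2A 4.93-fold, H2B 3.01-fold, H1 2.25-fold and H4 2.01-fold in KO. In WT the families had the same order, from 2.03-fold for H3 to 1.48-fold for H4. These family differences are descriptions and were not tested.

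The difference between the 2 responses was tested as the interaction of genotype and induction. It was below 0 in 54 of 58 clustered genes, with a median of -1.42 on the log2 scale, and 35 were called lower and 0 higher in limma with Benjamini-Hochberg adjustment, against 3.42% and 2.76% of all genes. Without the fold limit the counts were 45 and 0, against 20% and 19.4%. At an unadjusted p under 0.05 they were 47 and 1, against 25% and 24.2%. By family, 9 of 10 H3, 10 of 14 H2A, 9 of 16 H2B, 3 of 6 H1 and 4 of 12 H4 genes were called. *Hist1h2ag* had the largest interaction (-3.14 ± 0.53, limma adjusted p = 0.0064), and *Hist1h3g*, an H3 gene named here after its values were seen, had one of -3.03 ± 0.20 (limma adjusted p = 0.00059). *Hist1h3g* read 18.2, 20.4, 8.94 and 10.99 RPKM in the 2 undifferentiated and 2 differentiating WT libraries. In the KO libraries it read 33.5 and 34.8 RPKM undifferentiated and 2.34 and 1.82 RPKM differentiating, so its highest and lowest values were both in KO. The interaction and the 4 pairwise comparisons share their libraries and are not independent of each other.

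**Figure D2:**
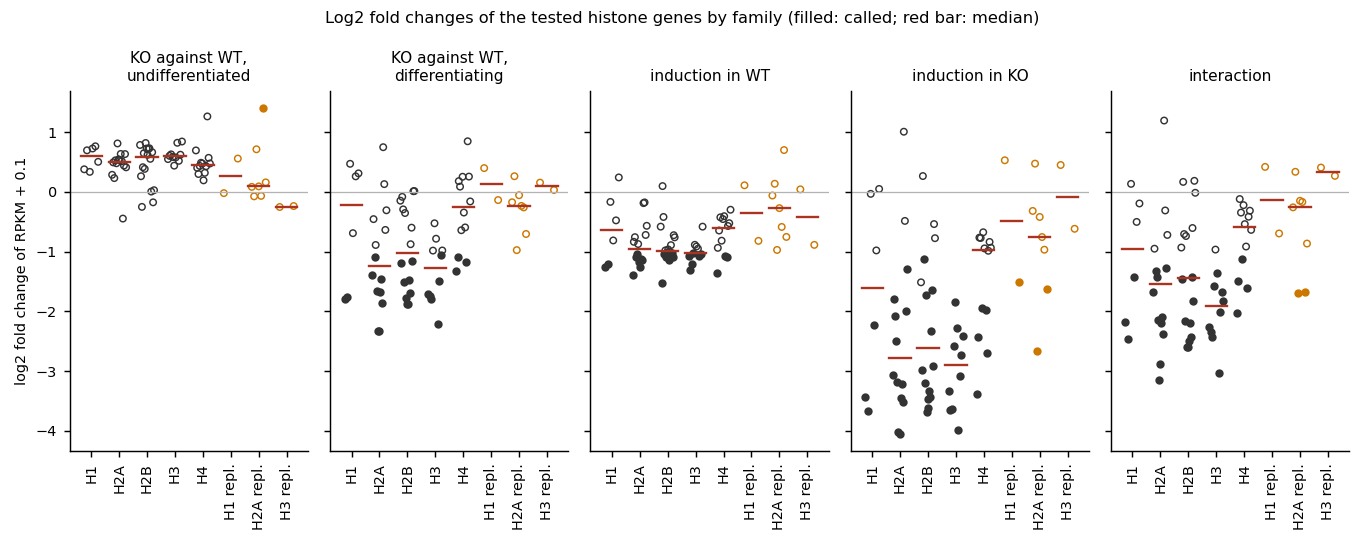
Log2 fold change of RPKM + 0.1 (y axis) for each tested histone gene by family (x axis) in the 4 comparisons and the interaction; clustered genes in black, replacement genes (repl.) in orange. Filled points were called, and the red bar is the family median. Induction in KO shows the deepest medians, -2.90 for clustered H3 against -0.97 for clustered H4.

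After 3 days of induction KO was below WT for many clustered genes. The median log2 fold change of KO against WT was -0.93 (range -2.34 to 0.85), 46 of 58 genes were below 0, and both KO libraries lay below both WT libraries in 43 genes and above in 7, against 37.1% and 33.8% of all genes tested. In limma with Benjamini-Hochberg adjustment 27 were called lower and 0 higher, against 1.95% and 1.36% of all genes; without the fold limit 40 were lower and 3 higher, against 22.9% and 17.8%. A fit of the 4 differentiating libraries alone called 15, and among the 35 tested clustered genes with at least 50% unique windows 9 were called, with a median of -0.46. The summed level differed less (1280 ± 23.3 against 1560 ± 86.3 RPKM, 0.82 times), and the H4 and H1 sums were close to equal in the genotypes. Clustered H4 stood at 549.3 and 574.5 RPKM in WT and 554.1 and 568.9 RPKM in KO, whereas clustered H3 stood at 100.1 and 120.6 RPKM in WT and 54.1 and 46.5 RPKM in KO. Among the abundant genes, *Hist2h2bb* (chromosome 3, 96269752 to 96270132), an H2B gene with 100% unique windows, was at 63.4 and 70.4 RPKM in WT and 37.2 and 24.0 RPKM in KO. Its log2 fold change was -1.16 ± 0.19 (limma adjusted p = 0.0059); without replicate 2 of differentiating KO it was -0.84 and fell short of the limit, and with only the 4 differentiating libraries in the fit the adjusted p was 0.056. The H3 genes *Hist1h3b* (chromosome 13, 23752267 to 23752886) and *Hist1h3c* (23744973 to 23745602) were called as well, at -1.74 ± 0.18 (limma adjusted p = 0.0016) and -1.79 ± 0.35 (limma adjusted p = 0.0099).

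The 2 differentiating KO libraries were not alike in these genes. Replicate 1 was above replicate 2 in 42 of 58 clustered genes, with a median log2 difference of 0.27, against 0.02 over all genes and -0.01 over the replacement genes. A one-sided split was not particular to this group. In undifferentiated and in differentiating WT replicate 1 was higher in 13 of 58 clustered genes, with medians of -0.06 and -0.14. In undifferentiated KO it was higher in 29 of 58, with a median of 0. With single libraries left out, the count of genes called between genotypes in differentiating cells ranged from 19, without replicate 2 of differentiating WT, to 30, without replicate 1 of differentiating KO.

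Some abundant clustered genes did not take part in the fall or took a smaller part. *Hist1h1c* (chromosome 13, 23738808 to 23740367), a linker histone gene, read 126.3, 137.0, 115.3 and 119.0 RPKM in the WT libraries, undifferentiated ones first. In KO it read 163.8 and 168.4 RPKM undifferentiated and 152.3 and 173.3 RPKM differentiating, so these pairs overlapped. Its change on induction was -0.17 ± 0.071 in WT (limma adjusted p = 0.082) and -0.03 ± 0.071 in KO (limma adjusted p = 0.71). *Hist1h2bc* rose in KO from 162.3 and 159.5 to 198.1 and 189.1 RPKM, by 0.27 ± 0.042 on the log2 scale (limma adjusted p = 0.0015), the one clustered gene higher after induction without the fold limit. *Hist1h4d* (chromosome 13, 23581598 to 23582735), the most abundant member, fell from 438.1 and 420.9 to 251.0 and 252.2 RPKM in KO, by 0.77 on the log2 scale (limma adjusted p = 9.3e-06). In WT it fell from 318.9 and 316.5 to 231.3 and 242.0 RPKM. The H4 genes *Hist1h4c* (23697635 to 23698454) and *Hist1h4h* (23531050 to 23531519) behaved alike in size, with falls of 0.77 and 0.68 in KO. In differentiating cells 3 clustered genes were higher in KO than in WT without the fold limit: *Hist1h1c* (0.47 ± 0.071, limma adjusted p = 0.0044), *Hist1h1e* (0.26 ± 0.037, limma adjusted p = 0.0038) and *Hist1h4h* (0.25 ± 0.034, limma adjusted p = 0.0031).

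Other abundant members lay between these extremes in KO. *Hist1h1d* (chromosome 13, 23553262 to 23560686) went from 110.2 and 117.2 to 24.4 and 23.9 RPKM, a log2 fold change of -2.23. *Hist1h2bn* (21754123 to 21754503) went from 169.3 and 181.0 to 38.4 and 31.9 RPKM (-2.32) and *Hist2h2ac* (chromosome 3, 96220361 to 96220880) from 80.2 and 78.4 to 20.3 and 19.5 RPKM (-1.99). In each of them the differentiating KO libraries were below the differentiating WT libraries. *Hist3h2a* (chromosome 11, 58954685 to 58956830) and *Hist1h3e* (chromosome 13, 23561534 to 23562369) fell by 1.29 and 1.85, and with -0.72 and -0.96 neither passed the fold limit for the interaction.

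The annotated 3′ end of a clustered gene varied together with the size of its change. In 17 tested genes the model stopped within 100 nt of the stem-loop, and in 16 it ran on for more than 200 nt, up to 4884 nt in *Hist1h1d*. The median log2 fold change on induction in KO was -3.06 for the short and -1.21 for the extended models, and in WT -0.96 and -0.61. In differentiating cells KO against WT gave -1.39 and -0.33, with 12 of 17 short and 1 of 16 extended genes called lower; the 1 was *Hist1h2bh*, an H2B gene named after its values were seen, and 1.95% of all genes were called lower. The interaction medians were -1.67 and -0.71, with 14 and 4 genes called lower, against 3.42% of all genes. The same split also divides the genes by shared sequence, with a median of 39.6% unique windows in all 21 short and 84.8% in all 18 extended models, and by family, since 6 of the 16 extended genes encode H4. These values were not tested against each other, and their parts cannot be told apart here. Of the 4 genes with 100% unique windows and no motif in their model, *Hist2h2bb* fell by 2.91 on the log2 scale on induction in KO. *Hist1h1a* and *Hist1h1b*, named with the next gene after their values were seen, fell by 3.43 and 3.67. *Hist2h2be*, an H2B gene at 0.487 to 1.07 RPKM, fell by 0.54 and was not called (limma adjusted p = 0.03).

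**Figure D3:**
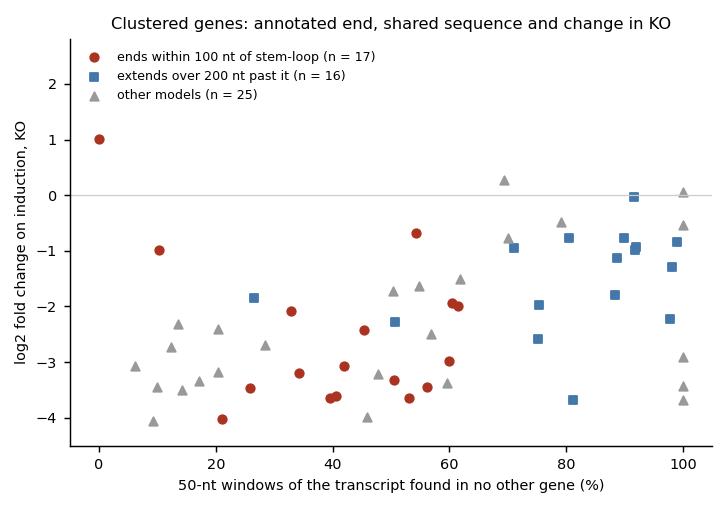
Log2 fold change on induction in KO MSCs (y axis) of the 58 tested clustered genes against the percent of 50-nt transcript windows found in no other gene (x axis), marked by the annotated 3′ end. Models that end within 100 nt of the stem-loop (17 genes) sit mostly to the lower left of models that extend over 200 nt past it (16 genes), with medians of -3.06 and -1.21.

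The replacement genes moved less. On induction their median log2 fold change was -0.27 in WT and -0.62 in KO, and for KO against WT it was 0.09 in undifferentiated and -0.14 in differentiating cells, with an interaction median of -0.17. In limma with Benjamini-Hochberg adjustment 0 of 11 were called on induction in WT, against 14.3% of all genes, and 3 of 11 were called lower in KO, against 9.87%. Between genotypes 1 of 11 was called in undifferentiated cells, against 1.7% of all genes, and 0 of 11 in differentiating cells, against 3.3%. For the interaction 2 were called, both lower, against 6.17%. Without the fold limit 8 passed on induction in WT (2 higher, 6 lower) and 11 in KO (3 higher, 8 lower), against 64.4% and 72.9% of all genes. For KO against WT 5 passed in undifferentiated and 7 in differentiating cells, against 32.2% and 40.7%, and for the interaction 9, against 39.4%. The class thus held changes in both directions.

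*H2afx*, whose protein is phosphorylated next to DNA breaks, was the replacement gene with the largest fall on induction in both genotypes. It lies on chromosome 9 from 44334694 to 44336077, and is the member of this class with the stem-loop printed above, 46 nt after the stop codon, in a model that runs on for a further 822 nt. It read 19.2 and 19.3 RPKM in undifferentiated and 9.18 and 10.4 RPKM in differentiating WT. In KO it read 32.2 and 31.2 RPKM undifferentiated and 5.31 and 4.57 RPKM differentiating. The 4 groups did not overlap, and KO held both the highest and the lowest. The log2 fold changes on induction were -0.97 ± 0.085 in WT (limma adjusted p = 0.00016) and -2.66 ± 0.085 in KO (limma adjusted p = 1.8e-06), and the interaction was -1.69 ± 0.12 (limma adjusted p = 0.00067). The clustered medians for the same 3 quantities were -0.94, -2.36 and -1.42.

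*H2afz*, which encodes H2A.Z of promoter nucleosomes (chromosome 3, 137864487 to 137866922), fell in both genotypes. It read 170.6 and 180.8 RPKM in undifferentiated WT, 99.9 and 108.6 RPKM in differentiating WT, 197.3 and 195.2 RPKM in undifferentiated KO and 70.6 and 57.9 RPKM in differentiating KO. The falls were 0.75 in WT (limma adjusted p = 0.00082) and 1.62 in KO (limma adjusted p = 1.8e-05), and the interaction of -0.86 ± 0.14 (limma adjusted p = 0.0052) was within the fold limit. Only 30.4% of its windows were unique. *H2afv*, which encodes the second form of H2A.Z (chromosome 11, 6427229 to 6444443), moved the other way. It read 13.1 and 13.3 RPKM in undifferentiated and 14.1 and 14.9 RPKM in differentiating WT, and 12.8 and 12.3 then 17.0 and 17.9 RPKM in KO. Its log2 fold change on induction was 0.14 ± 0.046 in WT (limma adjusted p = 0.039) and 0.47 ± 0.046 in KO (limma adjusted p = 0.00015).

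*H3f3a* and *H3f3b* encode the same protein, H3.3, and also parted. *H3f3a* (chromosome 1, 180800832 to 180813943) was at 205.6 and 203.4 RPKM in undifferentiated and 211.8 and 209.6 RPKM in differentiating WT. In KO it went from 171.8 and 171.5 RPKM, the lowest group, to 233.1 and 236.4 RPKM, the highest group. *H3f3b* (chromosome 11, 116021912 to 116027962) went from 212.2 and 219.9 to 115.4 and 118.3 RPKM in WT and from 185.1 and 181.7 to 121.2 and 117.9 RPKM in KO, with the differentiating groups overlapping. On induction *H3f3a* changed by 0.04 ± 0.028 in WT (limma adjusted p = 0.23) and by 0.45 ± 0.028 in KO (limma adjusted p = 2.3e-05), and *H3f3b* fell by 0.89 and 0.62 (limma adjusted p = 6.4e-06 and 1.4e-05). Both were lower in undifferentiated KO than in WT, by 0.25 and 0.24 on the log2 scale (limma adjusted p = 0.0024 and 0.0052).

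Of the linker histone genes, *H1f0* (chromosome 15, 79028450 to 79030504), which encodes H1.0 of resting and differentiated cells, was level in undifferentiated cells at 36.3 to 37.2 RPKM. It rose on induction to 40.0 and 40.1 RPKM in WT and to 52.7 and 53.0 RPKM in KO, with an interaction of 0.42 ± 0.035 (limma adjusted p = 0.00097). *H1fx* (chromosome 6, 87980421 to 87981637) went from 1.90 and 2.13 to 1.18 and 1.02 RPKM in WT. In KO it went from 3.00 and 3.03 to 0.925 and 1.06 RPKM, a called fall of 1.51 on the log2 scale (limma adjusted p = 3.4e-05). The macroH2A gene *H2afy* (chromosome 13, 56073619 to 56136361) fell from 40.8 and 41.5 to 32.9 and 35.4 RPKM in WT and from 44.4 and 43.4 to 32.8 and 32.9 RPKM in KO. *H2afy2* (chromosome 10, 61738665 to 61784147) fell from 12.4 and 13.5 to 8.62 and 8.53 RPKM and from 12.2 and 12.5 to 7.18 and 7.36 RPKM. *H2afj* (chromosome 6, 136808244 to 136810074) lay between 32.7 and 41.2 RPKM in all libraries. In KO it fell on induction from 40.7 and 41.2 to 32.7 and 33.0 RPKM (log2 fold change -0.32, limma adjusted p = 0.0022). In WT the log2 fold change was -0.06 (limma adjusted p = 0.38). *H2afy3* is annotated as a processed pseudogene (chromosome 15, 62218221 to 62219332) and was at most 1.32 RPKM in every library. It was called higher in undifferentiated KO (0.417 and 0.308 against 0.947 and 1.32 RPKM, limma adjusted p = 0.024), a call lost when any library of that comparison was left out.

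**Figure D4:**
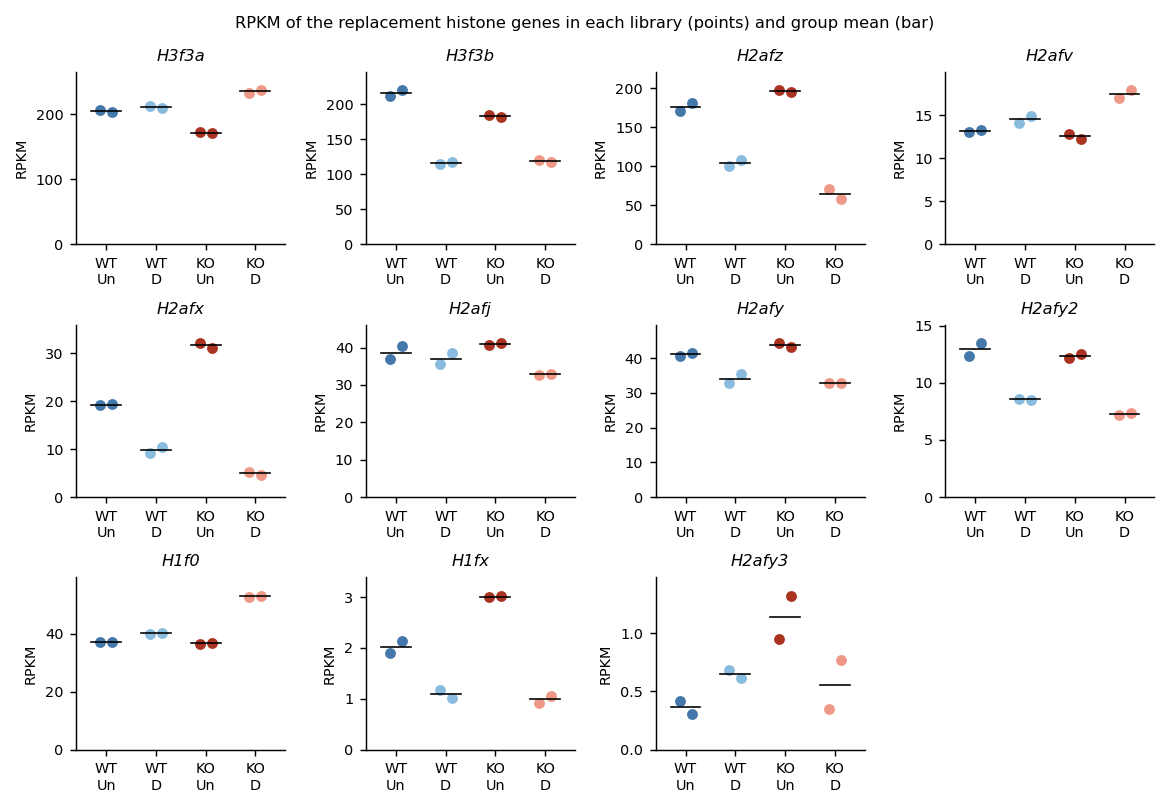
RPKM (y axis, from 0) of each of the 11 replacement histone genes in the 4 groups, WT and KO, undifferentiated (Un) and differentiating (D); points are the 2 libraries and the bar is their mean. *H2afx* and *H2afz* were lowest in differentiating KO, while *H1f0*, *H2afv* and *H3f3a* were highest there.

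As clustered genes fell, replacement genes made up more of the summed RPKM of their families. Such a share need not be the make-up of histone mRNA, since clustered genes such as *Hist2h3c1* and *Hist2h3c2* were listed at 0. Of the windows of *H2afz*, a large part of the H2A replacement sum, only 30.4% were unique. For H3 the replacement share was 65.4% and 65.0% in undifferentiated WT and 76.6% and 73.1% in differentiating WT. In KO it went from 51.1% in both libraries to 86.7% and 88.4%, so KO had both the lowest and the highest share. For H2A the shares were 52.4% and 51.7%, then 59.4% and 58.4% in WT, and 46.2% and 46.1%, then 66.0% and 67.4% in KO. For H1 they were 9.46% and 8.98%, then 14.5% and 13.7% in WT, and 6.62% and 6.54%, then 18.1% and 17.4% in KO. In all 3 families the order of the groups was the same and no groups overlapped. The smallest p that a two-sided exact permutation test of 2 against 2 libraries can give is 0.333, so the shares were not tested. The summed RPKM of the 2 H3.3 genes was 354.3 in both differentiating KO libraries, 353.3 and 356.9 in undifferentiated KO, 417.8 and 423.3 in undifferentiated WT and 327.2 and 327.9 in differentiating WT.

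**Figure D5:**
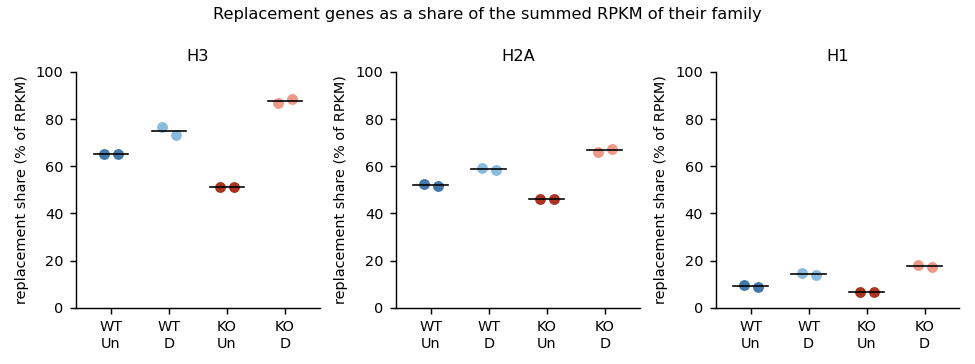
Replacement genes as percent of the summed RPKM of their family (y axis, 0 to 100%) for H3, H2A and H1 in the 4 groups, WT and KO, undifferentiated (Un) and differentiating (D); points are the 2 libraries and the bar is their mean. In each family undifferentiated KO was lowest and differentiating KO highest, from 51.1% to 87.6% in the mean for H3.

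Of 20 genes for histone gene transcription and 3′ end processing 0 were called in either genotype comparison or in WT induction in limma with Benjamini-Hochberg adjustment, against 1.7%, 3.3% and 14.3% of all genes. Their median log2 fold changes were 0.11 and -0.06 for KO against WT in undifferentiated and differentiating cells, and -0.23 and -0.38 on induction in WT and KO. At an unadjusted p under 0.05 and no fold limit 7 were higher and 0 lower in undifferentiated KO, against 20.7% and 23.5% of all genes. In differentiating KO 1 was higher and 9 were lower, against 22.3% and 27.7%, and on induction in WT 7 and 11, against 33.8% and 34.3%. In KO 3 of 20 were called lower on induction, against 9.87% of all genes. These were *Lsm11*, a part of the U7 particle that cuts histone pre-mRNA (3.11 and 3.08 to 1.20 and 1.18 RPKM, log2 fold change -1.31), *Nolc1* (-1.30) and *Srrt* (-1.13), with limma adjusted p of 3.6e-06, 4.4e-06 and 1.1e-05. *Slbp*, the gene of the stem-loop binding protein and named after its values were seen, went from 23.3 and 24.9 to 18.4 and 18.9 RPKM in WT and from 25.3 and 26.5 to 16.7 and 15.3 RPKM in KO. *Npat*, which activates clustered histone transcription at the start of S phase and is named on the same basis, stayed between 6.29 and 7.15 RPKM.

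Histone chaperones carry new histones to DNA. Of 35 genes for chaperones and deposition 12 were called lower on induction in KO, against 9.87% of all genes, 0 on induction in WT, against 4.63%, and 5 for the interaction, against 3.42%, with median log2 fold changes of -0.60, -0.29 and -0.41 (limma with Benjamini-Hochberg adjustment). At an unadjusted p under 0.05 and no fold limit 23 were lower and 6 higher in WT, against 34.3% and 33.8%. *Asf1b*, which hands H3-H4 to the replication machinery, fell from 8.38 and 8.40 to 1.07 and 0.824 RPKM in KO and from 5.20 and 5.77 to 2.86 and 3.09 RPKM in WT. Its log2 fold changes were -3.03 and -0.86 and its interaction -2.17 ± 0.17 (limma adjusted p = 0.00077). Of these 35 genes it was the 1 called lower in differentiating KO than in WT, against 1.95% of all genes. At an unadjusted p under 0.05 and no fold limit 24 were lower and 1 higher in differentiating KO, against 27.7% and 22.3%. In undifferentiated KO 20 were higher and 1 lower than in WT, against 20.7% and 23.5%. *Chaf1b*, a subunit of the replication-coupled chaperone CAF-1, had an interaction of -1.28 ± 0.11 (limma adjusted p = 0.0011). *Oip5* of the centromere deposition pathway had -1.01 and *Srcap*, which loads H2A.Z, -1.18 (limma adjusted p = 0.015 and 0.0084). *Srcap* did not fall in both genotypes. Its mean rose from 3.18 to 5.05 RPKM on induction in WT and fell from 5.28 to 3.67 RPKM in KO. *Cenpa*, the centromere H3 variant outside the symbols used here, went from 19.4 and 18.6 to 3.00 and 1.76 RPKM in KO and from 12.9 and 12.7 to 6.55 and 7.44 RPKM in WT, an interaction of -2.12 ± 0.32 (limma adjusted p = 0.0043). The H3.3 chaperone genes, named after their values were seen, were within the fold limit on induction in KO: *Hira* fell by 0.32 on the log2 scale, while *Daxx* rose by 0.56 and *Atrx* by 0.15 (limma adjusted p = 0.021, 0.0012 and 0.0042).

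Genes of S phase and proliferation moved in the same direction as the clustered histone genes in the median of each comparison. In 25 such genes (among them *Mcm2* to *Mcm7*, *Pcna*, *Ccne1*, *Top2a* and *Mki67*) the median log2 fold change was 0.51 for KO against WT in undifferentiated and -0.86 in differentiating cells, -0.59 on induction in WT and -2.04 in KO, and -1.41 for the interaction. Called lower were 10 of 25 in differentiating KO against WT, 2 on induction in WT, 23 on induction in KO and 20 for the interaction, against 1.95%, 4.63%, 9.87% and 3.42% of all genes. In WT 23 of the 25 genes were below 0 on induction and 2 above, the ribonucleotide reductase genes *Rrm1* and *Rrm2*. *Rrm2* was called higher, by 1.03 on the log2 scale, from 58.0 and 61.2 to 118.3 and 125.0 RPKM. *Rrm1* went from 80.1 and 84.8 to 124.7 and 125.6 RPKM. These 2 genes weigh heavily in the summed level, which therefore understates the fall of the others in WT. The summed level of all 25 genes was 513.6 and 528.4 RPKM in undifferentiated and 476.4 and 503.1 RPKM in differentiating WT. In KO it was 691.5 and 685.3 RPKM in undifferentiated and 309.2 and 261.9 RPKM in differentiating cells. The part of cell cycle activity in the histone values was not tested, and in bulk RNA fewer cells in S phase and less histone mRNA per cell cannot be told apart.

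Markers of other cells also differed between the groups. Macrophage and leukocyte markers (13 of 14 in the table, 11 tested) summed to 19.9 and 20.8 RPKM in undifferentiated WT, 32.5 and 38.3 in differentiating WT, 10.47 and 9.80 in undifferentiated KO and 14.2 and 15.2 in differentiating KO. *Lyz2* made up most of it in WT, at 12.9 to 26.5 RPKM against 3.19 to 7.66 RPKM in KO, and *Ptprc* was at 0 to 0.127 RPKM. Of the 11 tested, 5 were called lower in KO than in WT in undifferentiated and 6 in differentiating cells, against 1.09% and 1.95% of all genes, and 0 higher, but *Cd14* was higher in KO without the fold limit in both states (log2 fold changes 0.78 and 0.46, limma adjusted p = 0.0046 and 0.02). Of 9 endothelial markers 4 were tested; their sum of 2.76 to 3.03 RPKM in undifferentiated cells rose to 58.0 and 47.8 RPKM in differentiating WT and 127.8 and 143.1 RPKM in differentiating KO. This was almost wholly *Cd34*. On induction *Cd34*, *Kdr* and *Tek* were called higher and *Esam* lower in both genotypes, with *Tek* at most 4.13 RPKM and *Kdr* at most 0.584 RPKM, and the 5 markers below the minimum, among them *Pecam1* and *Cdh5*, were at most 0.206 RPKM. The part of such cells in the histone values was not tested.

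The testis-specific genes of the chromosome 13 cluster were near the detection limit. *Hist1h1t* (23695814 to 23696725) was at 0.252 to 0.672 RPKM, higher in both KO than in both WT libraries when undifferentiated and with overlapping groups in the other 3 pairs, and 0 of its 5 limma adjusted p-values was under 0.05; 0 of the unadjusted ones was either. *Hist1h2ba* (23933773 to 23934156) was at 0 to 0.455 RPKM, and its divergent partner *Hist1h2aa* (23934462 to 23934851) was at 0 to 0.164 RPKM and below the minimum for a test.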

How the data were processed

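RNA of 8 libraries was depleted of ribosomal RNA and sequenced with strand-specific 50-b reads. Per the labels and the study's methods, the authors aligned reads to mm10 with TopHat2 2.1.0 and deposited RPKM per gene and library from Cufflinks 2.2.1 (Cuffdiff); how library sizes were scaled and shared reads divided is not given in the sources used here. All 8 columns matched a library, and 0 columns lacked one. Estimated depth was 47.4 to 67.0 M reads, from the steps between low values. The depth of each library, and 216 nt subtracted from every transcript length, were chosen to give the most whole values. At that choice 81.8 to 85.7% of them were whole within 0.1 read. Chance gives 20% only for a depth fixed in advance, so this share is not a test of the estimate. Because gene lengths enter RPKM, no count test was run.

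The 79 members and all gene lists were chosen with earlier results of these data known. RPKM values were set to log2 after adding 0.1, genes with a mean under 0.1 RPKM were left out, and limma 3.58.1 (R 4.3.3) was fitted to the 4 groups with a mean-variance trend, 4 residual and 1.98 prior degrees of freedom, for 4 pairwise contrasts and the interaction. P-values were adjusted over 15342 genes by the Benjamini-Hochberg method. The fit was first tested on simulated data. Named genes were all replacement genes, the clustered genes of highest mean per family, those with the greatest changes, testis-specific members and called genes of the 2 machinery lists; others are marked as named after their values were seen, and 1 gene that the rule names is not reported here. Replicate numbers did not pair the libraries, since correlations of deviations from group means ran from -0.09 to 0.03 between groups. Alternatives changed the pseudocount, expression minimum, scaling, variance trend, replicate block, libraries in the fit, fold limit, windows of shared sequence, the class of *H2afx*, and left out each library in turn. Sequences were read from GENCODE M21 and RefSeq. Python 3.11.15 was used for sequences and figures.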

Additional observations from a re-analysis of the deposited data

Results flagged for a closer look

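For 12 named genes the response to induction differed between *Dnmt3l* KO and WT MSCs past the fold limit, by the limma interaction with Benjamini-Hochberg adjustment. The differences of log2 fold changes, KO minus WT, were -3.14 for *Hist1h2ag*, -2.88 for *Hist1h2ah*, -2.42 for *Hist1h3c*, -2.34 for *Hist1h3b*, -1.82 for *Hist2h2bb*, -1.67 for *Hist1h2ab*, -1.45 for *Hist1h2bb*, -1.43 for *Hist1h2bn*, -1.42 for *Hist1h1d* and -1.27 for *Hist2h2ac* among the clustered genes. Among the replacement genes they were -1.69 for *H2afx* and -1.67 for *H2afy3*. In 11 of the 12 the log2 fold change on induction was below 0 in both genotypes and lower in KO; the other, *H2afy3*, was at 0.70 in WT and -0.97 in KO. It had the highest adjusted p of them, 0.035, at levels of at most 1.32 RPKM.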

How the results depend on the processing

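Signs of the clustered medians held under every alternative run. With a pseudocount of 1, 15 clustered genes were called on induction in WT, 0 replacement genes in undifferentiated KO against WT and 1 for the interaction; the clustered median on induction in KO was -2.157, and replacement medians were -0.076 for differentiating KO against WT and -0.461 on induction in KO. Without an expression minimum the clustered medians were -0.736 for differentiating KO against WT and -2.154 on induction in KO. With a minimum of 1 RPKM, with members of at least 50% unique windows, or with *H2afx* counted as clustered, replacement medians were 0.033 and -0.095 for KO against WT in undifferentiated and differentiating cells and -0.518 on induction in KO; on induction in WT they were -0.429, -0.165 and -0.165. The minimum of 1 RPKM left 0 replacement calls in undifferentiated cells and 1 for the interaction, and moving *H2afx* also left 1.

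Among clustered genes with at least 50% unique windows, 9 were called in differentiating KO against WT, 12 and 21 on induction in WT and KO, and 15 for the interaction, with medians of -0.455, -1.717 in KO and -0.914 for the interaction; 35 of 58 genes remained. Quantile normalization called 1 replacement gene in differentiating KO against WT and 1 on induction in WT, with medians of -0.209 and -0.473 on induction in WT and KO. It turned the sign of small values: *H1f0* in undifferentiated cells (0.012), *H2afj* in WT (0.013), *Hist1h1c* in KO (0.11) and *Hist1h1t* in WT and KO (-0.104 and -0.301). Fits of the compared libraries alone called 1 and 15 clustered genes between genotypes in undifferentiated and differentiating cells. Without the fold limit 31, 43 and 47 clustered genes passed (undifferentiated, differentiating, WT induction), and 5, 7, 8, 11 and 9 replacement genes with KO induction and the interaction added. Apart from the fold limit and fewer genes or libraries entering, the causes of these shifts were not tested.

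The replicate numbers shared only a label; with the number as a replicate block 1 replacement gene, in place of 2, was called for the interaction (*H2afy3*, adjusted p = 0.05 in limma), and clustered counts stayed within 1.5 times.

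With each library left out, clustered calls were 0 to 1 in undifferentiated KO against WT and 14 to 26 on induction in WT. Replacement calls were 0 to 1 in both genotype comparisons and WT induction and 1 to 3 for the interaction. Replacement medians were 0.02 to 0.106, -0.179 to -0.048, -0.324 to -0.218, -0.63 to -0.491 and -0.229 to -0.135 for undifferentiated and differentiating KO against WT, induction in WT and KO, and the interaction. Signs turned in *H2afj* in WT (-0.124 to 0.005), *H2afy3* in differentiating cells (-0.735 to 0.217), *Hist1h1c* in KO (-0.124 to 0.061), *Hist1h2ba* in differentiating cells and WT (-0.748 to 0.457 and -1.184 to 0.021) and *Hist1h1t* (-0.157 to 0.779 in differentiating cells, -0.111 to 0.597 in WT, -0.418 to 0.518 in KO and -0.661 to 0.275 for the interaction). On a transcript of 500 nt with 216 nt subtracted, as in the depth estimate, values under 0.223 RPKM rest on about 3 reads or fewer.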

Other observations

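*Hist2h2aa2*, an H2A gene on chromosome 3 (96239749 to 96240276) singled out after its values were seen, had the highest fitted log2 fold change of the clustered genes on induction in KO, 1.01 ± 0.89 (limma adjusted p = 0.35). It was at most 0.467 RPKM in the 8 libraries, with a replicate near 0 in both undifferentiated groups, and 0% of its 50-nt windows were unique.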
